A study of Oryza sativa with 30 samples.

Results

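The DREB1 genes (also called CBF genes) encode transcription factors of the AP2/ERF family. In this series they were taken as every gene whose deposited description contains the protein name "Dehydration-responsive element-binding protein 1". The rule found 10 genes among the 38978 genes listed with the ATM line, and all 10 were also among the 40718 genes listed with the DJ line. The series holds 30 RNA sequencing libraries of 16 groups, made from leaves of rice (Oryza sativa) seedlings aged 14 days, grown at 26 °C with 13 h of light and 11 h of dark. Gene values were deposited as FPKM, fragment counts divided by gene length and library size.

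The groups kept at 4 °C for 24 h were the atm-1 mutant and the line labelled wild type for ATM, with 1 library each. The groups sampled 6 h after 70 Gy of 60Co gamma rays were atm-1 with 3 libraries, the atr mutant with 1 and ATM with 3. Their untreated counterparts were atm-1 with 3 libraries, atr with 1 and ATM with 3, and untreated leaves of the top6a3 mutant with 3 libraries stood beside those of its labelled wild type, TOP6A3, with 1. A second set held, 6 h after 40 Gy, the ku70 mutant with 2 libraries, the wild type DJ with 2, a line overexpressing TOP6A3 (TOP6A3-OE1) with 1, and that line carrying the atm-2 mutation (TOP6A3-OE1_atm-2) with 1. Untreated leaves of ku70 and of DJ had 2 libraries each. ATM and ATR are kinases of the DNA damage response, KU70 acts in the joining of DNA ends, and TOP6A3 is named as a topoisomerase VI subunit. Neither the promoter of the overexpression construct nor whether replicates are separate plants is given in the sources used here. A p-value therefore covers only how far libraries of a group differ.

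In plants, DREB1 factors bind the DRE/CRT element in the promoters of cold and dehydration genes through their AP2 domain. Their own transcripts are known to accumulate soon after plants are moved to the cold, under calcium- and ICE1-linked regulators, and they are also known to be gated by the circadian clock. Rice plants that overexpress members of this family have been described as more tolerant of cold, drought and salt.

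OsDREB1A (Os09g0522200), OsDREB1H (Os09g0522100, deposited under the symbol OsERF#133) and OsDREB1B (Os09g0522000) lay side by side on chromosome 9. OsDREB1B spanned bases 20395262 to 20395703, OsDREB1H 20399458 to 20400198 and OsDREB1A 20403413 to 20404332, all on the minus strand, as the files give them without naming a genome build. The 3 genes fitted into 9071 bases, with 3754 bases between OsDREB1B and OsDREB1H and 3214 between OsDREB1H and OsDREB1A. The other members lay outside this cluster. OsDREB1C (Os06g0127100) and OsDREB1D (Os06g0165600) were on chromosome 6, OsDREB1G (Os02g0677300) on chromosome 2, OsDREB1E (Os04g0572400) on chromosome 4 and OsDREB1F (Os01g0968800, deposited as OsERF#027) on chromosome 1. Os08g0545500 (OsERF#028) on chromosome 8 and Os07g0198650 on chromosome 7 were both described as DREB1I. The RefSeq gene table (assembly ASM3414082v1) pairs the synonym ERF28 with DREB1J and ERF29 with DREB1I, both on chromosome 8. Os08g0545500 and Os07g0198650 are therefore called here by their deposited symbol or identifier.

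The description named an AP2 domain for 8 of the 10 genes. The exceptions were Os07g0198650 and OsDREB1B, whose gene model was also the shortest of the 10, at 442 bases. An FPKM value rests on the length of the model, so the level of OsDREB1B relative to the other members depends on that length. A further gene, Os09g0522500, lay on the plus strand inside OsDREB1A and was listed at 0 in all 20 libraries of the ATM set. The counting of reads that match more than 1 of these related genes is not stated in the labels.

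Reads per gene could be recovered from the FPKM steps, and came to between 10364355 and 16477147 per library. Libraries differed in how many of their detected genes had only 1 to 10 reads. The first atm-1 control replicate (1.53%) and the third ATM replicate at 70 Gy (1.70%) had low shares; the remaining 18 libraries of the ATM set had 10.8% to 21.8%. In the DJ and ku70 libraries it was 1.22% to 8.30%, and 5 members were listed at 0 in all of those libraries. Leaf marker genes summed to 1798 FPKM in the cold ATM library and 3835 in the cold atm-1 library, against 6296 to 12910 in the ATM and atm-1 controls. The root and meristem markers were listed at 0 in all of these, and the part of the leaf marker difference in the cold results was not tested. In bulk leaf RNA, fewer cells of a type and less RNA per cell cannot be told apart.

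In untreated ATM and atm-1 leaves, OsDREB1A, OsDREB1B and OsDREB1C made up most of the DREB1 transcripts. Summed over the family, the level was 113 to 201 FPKM in the 3 atm-1 controls and 38.1 to 169.1 FPKM in the 3 ATM controls. OsDREB1C was the most abundant member in ATM control replicate 1 and atm-1 control replicate 1, OsDREB1A in ATM control replicate 2 and atm-1 control replicate 3, and OsDREB1B in ATM control replicate 3 and atm-1 control replicate 2. No order of these 3 genes therefore held across the control libraries. OsDREB1H and OsDREB1G were low, at 0.315 to 5.36 FPKM and 0 to 6.78 FPKM in these 6 libraries. OsDREB1D was listed at 0 in all of them.

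**Figure D1:**
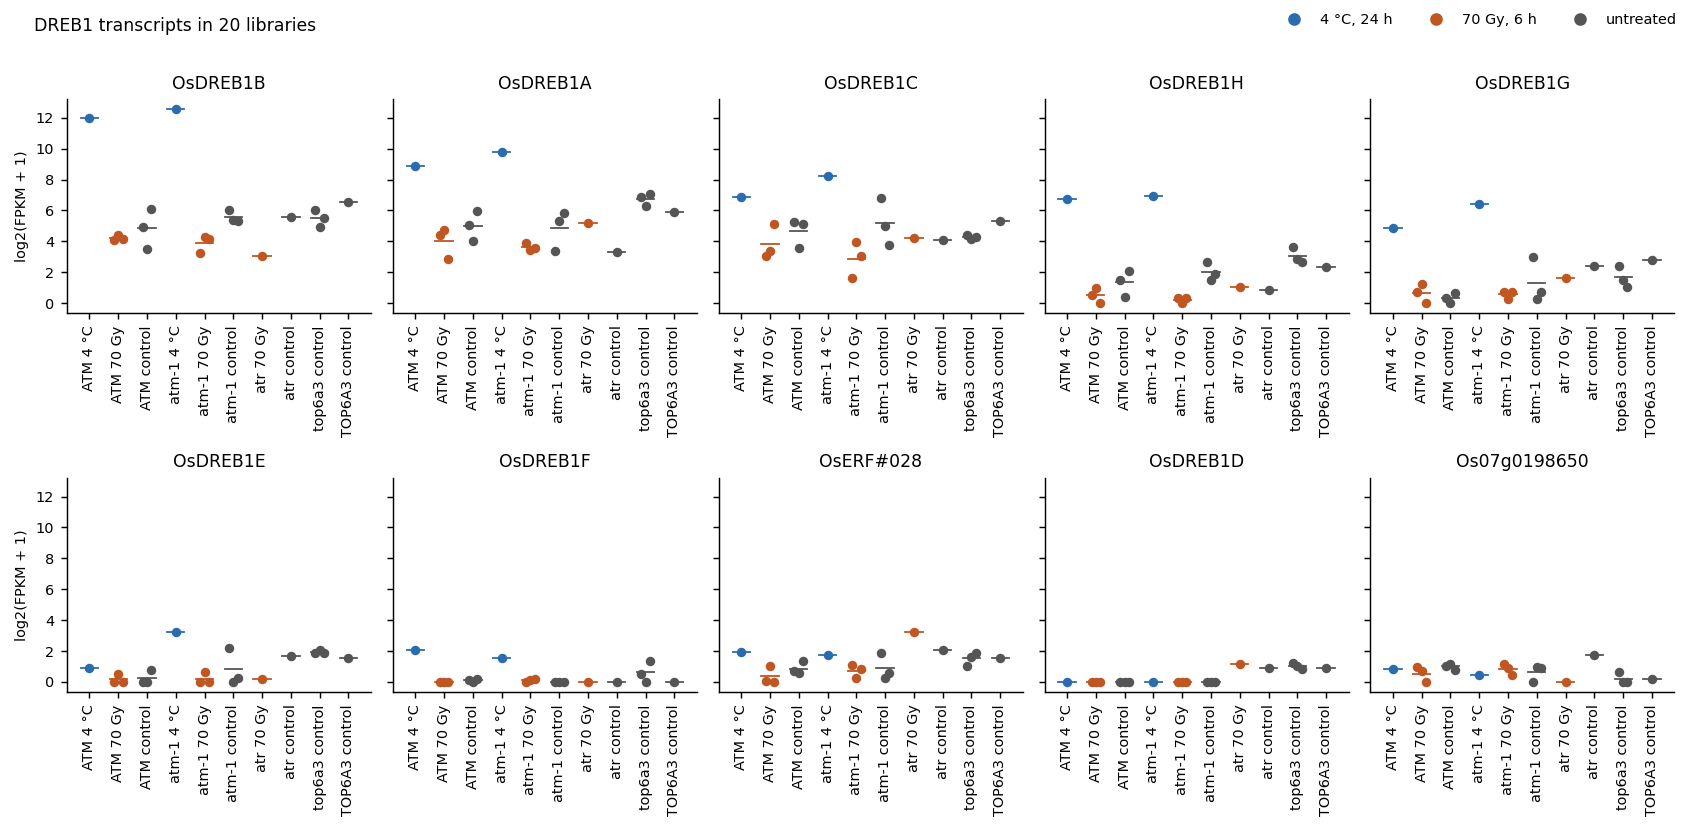
Level of each of the 10 DREB1 genes as log2(FPKM + 1) on the vertical axis, in the 20 libraries of the ATM, atm-1, atr and TOP6A3 lines, by group on the horizontal axis. Each point is a library and each line a group mean, and the cold points of OsDREB1B, OsDREB1A, OsDREB1C, OsDREB1H and OsDREB1G stand above all other libraries of their panel.

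At 4 °C, OsDREB1B was among the highest genes by FPKM, a measure that for this gene rests on a model of 442 bases. It had 4005 FPKM in the cold ATM library, against 29.8, 10.2 and 67.2 FPKM in the ATM controls. In the cold atm-1 library it had 6003 FPKM, against 64.6, 41.0 and 39.5 FPKM in the atm-1 controls. Both cold libraries lay far above every control, and by FPKM OsDREB1B was number 9 of all genes in the cold ATM library and number 6 in the cold atm-1 library. The cold level was 112-fold the ATM control mean of 35.7 ± 28.9 FPKM (SD, n = 3) and 124-fold the atm-1 control mean of 48.4 ± 14.1 FPKM (SD, n = 3). These folds rest on the authors' scaling. Recovered reads were 116% of the authors' library size in the cold ATM library and 141% in the cold atm-1 library. Per recovered read total, the cold values of OsDREB1B were 3459 in ATM and 4258 in atm-1.

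On the log2(FPKM + 1) scale, OsDREB1B rose by 7.13 ± 0.75 in ATM (SE, limma adjusted p = 7.46e-05) and by 6.96 ± 0.75 in atm-1 (SE, limma adjusted p = 7.08e-05). These were the differences numbered 5 and 13 from the top among 24582 genes tested. Each cold arm is a lone library, which the fit assumes to vary like the other groups. With only the atm-1 cold and control groups fitted, no gene of all was called in atm-1 (2159 had an unadjusted limma p under 0.05), and the limma adjusted p was 0.324 for OsDREB1B and OsDREB1H, 0.361 for OsDREB1A and 0.372 for OsDREB1G.

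OsDREB1H, next to OsDREB1B on the chromosome, was low in controls and high in both cold libraries. It had 107 FPKM in the cold ATM library, against 1.88, 0.315 and 3.25 FPKM in the ATM controls, and 123 FPKM in the cold atm-1 library, against 5.36, 1.87 and 2.73 FPKM in the atm-1 controls. The rise was 5.41 ± 0.63 in ATM (SE, limma adjusted p = 0.000176) and 4.92 ± 0.63 in atm-1 (SE, limma adjusted p = 0.000290) on the log2(FPKM + 1) scale.

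OsDREB1A, the third gene of the cluster, was higher than OsDREB1H in every control and also rose in both lines. It had 459.8 FPKM in the cold ATM library, against 32.3, 14.96 and 60.7 FPKM in the ATM controls, and 882 FPKM in the cold atm-1 library, against 9.37, 38.8 and 56.0 FPKM in the atm-1 controls. The rise was 3.85 ± 0.93 in ATM (SE, limma adjusted p = 0.0173) and 4.94 ± 0.93 in atm-1 (SE, limma adjusted p = 0.00396). The difference between the rises of these cluster genes was not tested.

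OsDREB1G, on chromosome 2, rose in both lines as well. It had 28.02 FPKM in the cold ATM library, against 0.260, 0 and 0.542 FPKM in the ATM controls, and 85.2 FPKM in the cold atm-1 library, against 6.78, 0.217 and 0.624 FPKM in the atm-1 controls. The rise was 4.54 ± 0.85 in ATM (SE, limma adjusted p = 0.00434) and 5.12 ± 0.85 in atm-1 (SE, limma adjusted p = 0.00169).

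OsDREB1C had 116 FPKM in the cold ATM library, against 36.4, 10.9 and 34.2 FPKM in the ATM controls, and 298 FPKM in the cold atm-1 library, against 109, 30.4 and 12.7 FPKM in the atm-1 controls. The difference did not pass in either line alone, at 2.23 ± 1.14 in ATM (SE, limma adjusted p = 0.218) and 3.05 ± 1.14 in atm-1 (SE, limma adjusted p = 0.0939). Over the mean of both lines it passed, at 2.64 ± 0.80 (SE, limma adjusted p = 0.0276), but not when FPKM was rescaled to the recovered read totals (limma adjusted p = 0.0575) or when only the 4 groups compared were fitted (limma adjusted p = 0.0866). Without atm-1 control replicate 1, the library with 109 FPKM, the difference in atm-1 was 3.85 (limma adjusted p = 0.0181).

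OsDREB1F and OsDREB1E stayed low. OsDREB1F had 3.21 FPKM from 24 reads in the cold ATM library and 1.97 FPKM from 15 reads in the cold atm-1 library, against 0 to 0.165 FPKM in the 6 controls. It passed the filter on low values only through the cold libraries, so its calls, at 1.96 in ATM (limma adjusted p = 0.00258) and 1.57 in atm-1 (limma adjusted p = 0.00782), are no independent sign of a cold response. By voom on recovered reads these adjusted p-values were 0.0897 and 0.0723.

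OsDREB1E had 0.846 FPKM in the cold ATM library, against 0, 0 and 0.731 FPKM in the ATM controls, and 8.31 FPKM from 50 reads in the cold atm-1 library, against 3.52, 0 and 0.219 FPKM in the atm-1 controls. Its difference was 0.62 ± 0.65 in ATM (SE, limma adjusted p = 0.587) and 2.40 ± 0.65 in atm-1 (SE, limma adjusted p = 0.0260). The call in atm-1 was lost without atm-1 control replicate 2 (limma adjusted p = 0.0539) and without replicate 3 (limma adjusted p = 0.0550), and in 6 of 12 alternatives in all, with voom on recovered reads at an adjusted p of 0.268. Over both lines the difference was 1.51 (limma adjusted p = 0.0272), and this call was lost without ATM control replicate 1 (limma adjusted p = 0.05003) and in 5 of 15 alternatives in all.

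The remaining 3 members did not pass in the cold. OsERF#028 had 2.85 FPKM in the cold ATM library, against 0.607, 0.475 and 1.55 FPKM in the ATM controls, and 2.35 FPKM in the cold atm-1 library, against 2.74, 0.211 and 0.515 FPKM in the atm-1 controls. Os07g0198650 had 0.805 FPKM in the cold ATM library and 0.395 FPKM in the cold atm-1 library, against 0 to 1.26 FPKM in the 6 controls. OsDREB1D was listed at 0 in both cold libraries.

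Counted over the family, 5 of 10 genes were called higher in the cold in ATM, where 7.38% of all genes tested were, and 6 of 10 in atm-1, where 9.46% were. Over the mean of both lines 7 of 10 were called higher, against 15.6% of all genes. OsDREB1F is among these counts, and no member was called lower. The median difference of the 10 genes was 2.20 over both lines, and that of all genes tested was -0.01.

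**Figure D2:**
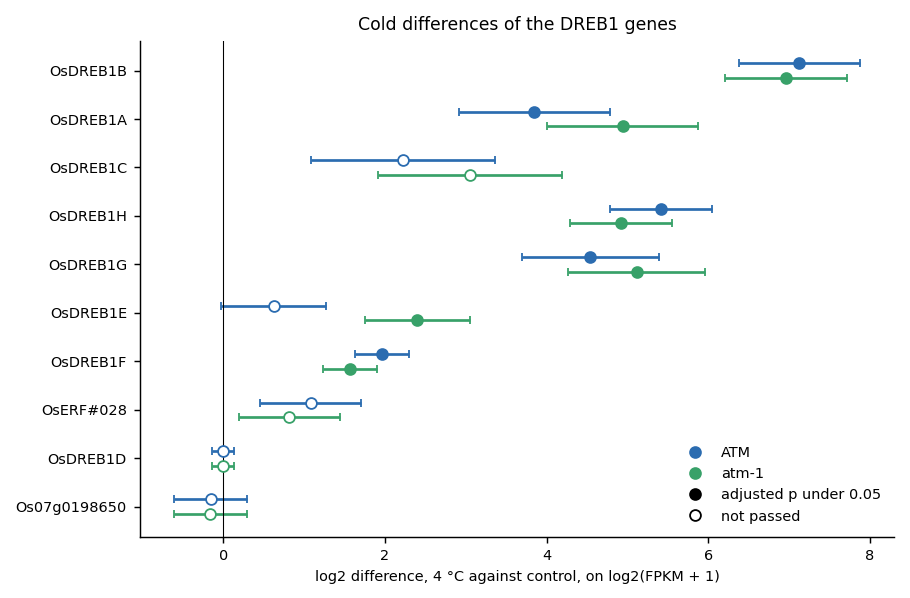
Difference between cold and control leaves for each DREB1 gene on the horizontal axis, in log2(FPKM + 1), with SE bars, for ATM and atm-1. Filled points passed at a limma adjusted p under 0.05, and OsDREB1B stands furthest to the right, at 7.13 in ATM and 6.96 in atm-1.

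The make-up of the family is given as the share of each gene in the summed FPKM, without a test. OsDREB1B accounted for 84.8% of the summed DREB1 FPKM in the cold ATM library and 81.1% in the cold atm-1 library, against 26.8% to 39.7% in the ATM and atm-1 controls. The sum itself was 4723 FPKM in the cold ATM library and 7404 in the cold atm-1 library. These shares depend on the short OsDREB1B model. In recovered reads, OsDREB1B held 15844 of 21507 DREB1 reads in the cold ATM library and 24187 of 35564 in the cold atm-1 library. The ratio of OsDREB1B to OsDREB1A was 8.71 in the cold ATM library, against 0.922, 0.682 and 1.11 in the ATM controls. In the cold atm-1 library it was 6.81, against 6.89, 1.05 and 0.705 in the atm-1 controls, so atm-1 control replicate 1 overlapped with the cold library. That replicate had 9.37 FPKM of OsDREB1A, the lowest of the 6 controls.

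**Figure D3:**
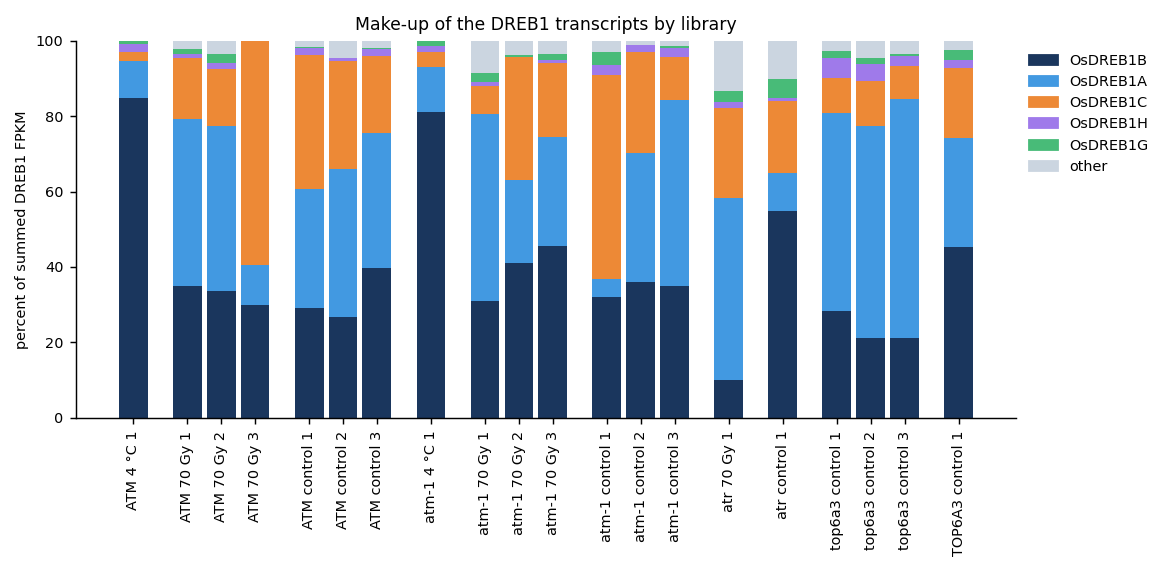
Percent of the summed DREB1 FPKM held by each gene, on the vertical axis from 0 to 100, in each library of the ATM set. OsDREB1B fills 84.8% of the bar of the cold ATM library and 81.1% of that of the cold atm-1 library. The shares depend on the lengths of the gene models.

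Between the 2 cold libraries most abundant members were higher in atm-1 than in ATM. OsDREB1C was 2.57-fold, OsDREB1A 1.92-fold, OsDREB1B 1.499-fold and OsDREB1H 1.15-fold the level of the cold ATM library, and OsDREB1G was 3.04-fold. The authors' scaling differed between the cold libraries, since the recovered reads were 116% of the authors' library size in ATM and 141% in atm-1. Per recovered read total, OsDREB1C was 2.11-fold, OsDREB1A 1.57-fold and OsDREB1B 1.23-fold the cold ATM level, and OsDREB1H turned to 0.945-fold. These are single libraries with no replicate check. Among all genes, 7.43% were higher and 5.01% lower by a log2 difference of 1 or more. As an interaction, the cold difference in atm-1 minus that in ATM, 0 of 10 members passed, where 0.163% of all genes did. An unadjusted limma p under 0.05 was reached by 0 of 10, and the share of all genes at that threshold is not given here. For OsDREB1B the interaction was -0.16 ± 1.06 and for OsDREB1A 1.10 ± 1.32 (SE), so differences of either sign are within these errors.

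Known regulators of the DREB1 genes were followed as a list, together with gene models matched to such regulators only by description. Of 15 tested genes of 18 listed, 5 were called higher and 0 lower over both lines, where 15.6% of all genes tested were called higher and 12.9% lower. The median difference of the list was 0.61, against -0.01 for all genes. In ATM alone 4 were called higher (7.38% of all genes) and in atm-1 alone 3 (9.46% of all genes). OsMSRMK2, a MAP kinase, had 219.8 FPKM in the cold ATM library, against 37.8, 23.6 and 42.1 FPKM in the ATM controls, and 476 FPKM in the cold atm-1 library, against 111, 43.7 and 32.1 FPKM in the atm-1 controls, a rise of 2.90 (limma adjusted p = 0.000310). OsMYBS3, a MYB factor described in rice as a repressor of DREB1 genes in prolonged cold, rose by 1.26 (limma adjusted p = 0.000114). Os03g0388432, a non-translating gene model described by similarity to a calmodulin-binding transcription activator, rose by 1.81 (limma adjusted p = 0.000499).

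The next list held genes known to act downstream of cold and dehydration signals, together with family members and gene models matched only by description. Of 38 tested of 51 listed, 4 were called higher and 1 lower over both lines, a share of higher calls under the 15.6% of all genes, and the median was -0.14. In ATM alone 0 of the 38 were called by limma, where 7.38% of all genes were called higher. In atm-1 alone 3 were called higher, where 9.46% of all genes were, and 1 lower. OsTPP7, a trehalose phosphate phosphatase, had 56.3 FPKM in the cold ATM library, against at most 20.5 FPKM in the ATM controls, and 259 FPKM in the cold atm-1 library, against 41.3, 18.3 and 18.4 FPKM in the atm-1 controls, a rise of 2.59 (limma adjusted p = 0.000611). The trehalose phosphate synthase genes OsTPS6, OsTPS8 and OsTPS2 were the other 3 called higher. The gene called lower, named after its values were seen, was OsRCI2-11, of a family of small membrane proteins, at -0.89 (limma adjusted p = 0.0339). The related DREB2 factors, known for drought and heat, had 0 of 3 tested genes called. DREB2A had a difference of -0.65 (limma adjusted p = 0.497).

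Of 12 tested ZAT zinc-finger genes of 23 listed, a family known for stress responses, 5 were called higher and 0 lower over both lines, beside 15.6% of all genes called higher, with a median of 0.80. In ATM alone 2 of the 12 were called higher (7.38% of all genes) and in atm-1 alone 1 (9.46% of all genes). Os02g0659500 is in each of these counts and among the 5. It had 1.14 FPKM in the cold ATM library and 1.19 FPKM in the cold atm-1 library, against 0 to 0.187 FPKM in the controls. Its calls rest on values just above the filter of 1 FPKM. ZFP36 had 108 FPKM in the cold ATM library, against 4.16, 3.69 and 3.14 FPKM in the ATM controls, and 146 FPKM in the cold atm-1 library, against 47.3, 11.9 and 0.132 FPKM in the atm-1 controls, a rise of 4.30 (limma adjusted p = 0.00588). ZFP182 had 419 FPKM in the cold ATM library and 625 FPKM in the cold atm-1 library, against 4.67 to 681 FPKM in the controls, the highest of them atm-1 control replicate 1.

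Circadian clock genes also differed between the cold and control libraries. CCA1, a morning clock factor, had 314 FPKM in the cold ATM library, against 7.11, 2.78 and 8.90 FPKM in the ATM controls, and 228 FPKM in the cold atm-1 library, against 153, 9.52 and 12.2 FPKM in the atm-1 controls. GI (GIGANTEA), an evening-phased clock gene, had 13.2 FPKM in the cold ATM library, against 587, 584 and 529 FPKM in the ATM controls, and 17.8 FPKM in the cold atm-1 library, against 249, 485 and 576 FPKM in the atm-1 controls. Of the 8 clock genes, 1 was called higher and 5 lower over both lines, beside 15.6% and 12.9% of all genes, with GI at -4.88 (limma adjusted p = 7.36e-07) and OsPRR73, a pseudo-response regulator, at -3.36 (limma adjusted p = 4.18e-09).

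The labels do not state the hour of day of sampling. The part of the clock or of sampling time in the DREB1 differences was not tested.

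**Figure D4:**
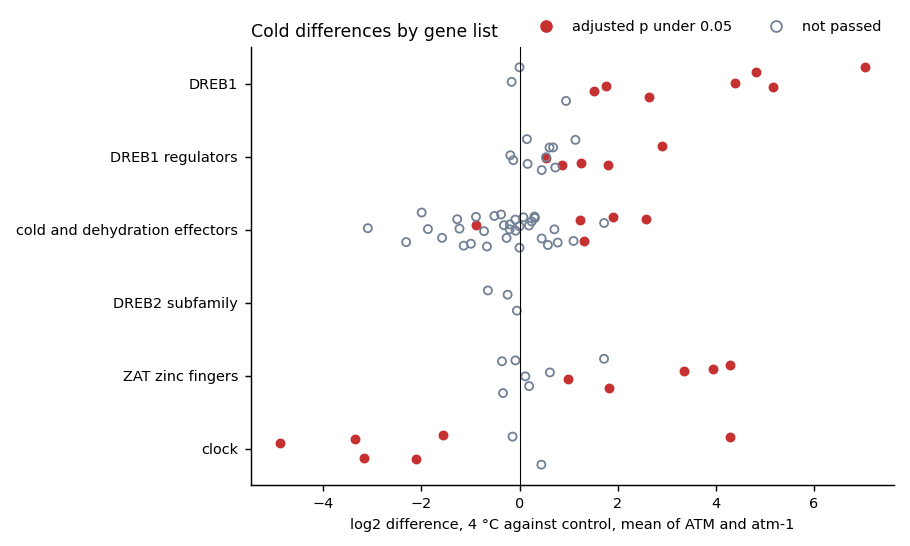
Difference between cold and control leaves, as the mean of ATM and atm-1 on log2(FPKM + 1), for the DREB1 genes and 5 lists of related genes, 1 point a gene. Filled points passed at a limma adjusted p under 0.05, and the clock list has 5 of them to the left of 0 and 1 to the right.

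After 70 Gy no DREB1 gene passed in either line. In ATM, 0 of 10 were called, where 0.525% of all genes were. An unadjusted limma p under 0.05 was reached by 0 of 10 in ATM, and the share of all genes at that threshold is not given here. In atm-1, 0 of 10 were called, where 0% of all genes were. There, 3 members had an unadjusted limma p under 0.05, against 7.64% of all genes.

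These 3 were OsDREB1H, OsDREB1C and OsDREB1B, which were low in irradiated atm-1 leaves. OsDREB1H had 0.278, 0 and 0.252 FPKM in atm-1 at 70 Gy, against 5.36, 1.87 and 2.73 FPKM in the atm-1 controls, a difference of -1.80 ± 0.45 (SE, limma adjusted p = 0.555). OsDREB1B had 8.55, 18.5 and 16.6 FPKM, against 64.6, 41.0 and 39.5 FPKM in the atm-1 controls, a difference of -1.70 ± 0.53 (SE, limma adjusted p = 0.555). OsDREB1C had 2.07, 14.7 and 7.16 FPKM, against 109, 30.4 and 12.7 FPKM in the atm-1 controls, where the groups overlapped, a difference of -2.30 ± 0.80 (SE, limma adjusted p = 0.575). Without atm-1 control replicate 1 this difference of OsDREB1C was -1.50, without atm-1 control replicate 3 it was -3.003 and without atm-1 70 Gy replicate 1 it was -1.675. OsDREB1A had 13.7, 9.96 and 10.6 FPKM, against 9.37, 38.8 and 56.0 FPKM in the atm-1 controls. With library weights, under which 2649 of all genes were called in atm-1, these 4 members passed (limma adjusted p of 0.0101 for OsDREB1A, 0.0135 for OsDREB1H, 0.0344 for OsDREB1B and 0.0346 for OsDREB1C).

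In ATM the 70 Gy and control groups overlapped for these genes. OsDREB1B had 16.0, 20.1 and 17.1 FPKM at 70 Gy, against 29.8, 10.2 and 67.2 FPKM in the ATM controls. OsDREB1A had 20.3, 26.2 and 6.16 FPKM, against 32.3, 14.96 and 60.7 FPKM in the ATM controls. OsDREB1C had 7.40, 9.17 and 34.0 FPKM, against 36.4, 10.9 and 34.2 FPKM in the ATM controls, with the highest value of the irradiated libraries in replicate 3, the library with few low-read genes.

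No member passed when the lines were tested against each other. For the difference between the 70 Gy responses, atm-1 minus ATM, 0 of 10 members passed (0.167% of all genes), for atm-1 against ATM at 70 Gy 0 of 10 (0.33%), and for untreated atm-1 against ATM 0 of 10 (0% of all genes). In each of these, 0 of 10 had an unadjusted limma p under 0.05, and the share of all genes at that threshold is not given here. In the lone atr libraries OsDREB1A was at 36.1 FPKM at 70 Gy, against 8.69 FPKM without treatment, and OsDREB1B at 7.40 FPKM at 70 Gy, against 46.7 FPKM without treatment. By a log2 difference of 1 or more, 6.22% of all genes were higher and 12.6% lower in that pair, which has no replicate check.

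Untreated top6a3 leaves held the highest OsDREB1A levels of the ATM set outside the cold. OsDREB1A had 117, 77.3 and 135 FPKM in the top6a3 libraries, against 58.7 FPKM in the TOP6A3 library, and OsDREB1B had 63.1, 28.9 and 45.4 FPKM, against 92.8 FPKM. Neither passed, at 0.85 ± 0.93 (SE, limma adjusted p = 0.608) for OsDREB1A and -1.07 ± 0.75 (SE, limma adjusted p = 0.392) for OsDREB1B. In this comparison 0 of 10 members were called, where 12.9% of all genes were. An unadjusted limma p under 0.05 was reached by 0 of 10. The share of all genes at that threshold is not given here, so the latter count is not read as a result. OsDREB1D, listed at 0 in every ATM and atm-1 library, had 1.39, 1.08 and 0.778 FPKM in top6a3, against 0.864 FPKM in TOP6A3. OsDREB1H had 11.3, 6.25 and 5.44 FPKM in top6a3, against 3.95 FPKM in TOP6A3, and OsDREB1G had 4.38, 1.85 and 1.11 FPKM in top6a3, against 5.835 FPKM in TOP6A3.

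Other members were also read in the lone atr libraries. OsDREB1C had 17.85 FPKM from 250 reads at 70 Gy, against 16.3 FPKM from 216 reads without treatment. OsERF#028 had 8.56 FPKM from 154 reads in atr at 70 Gy, against 3.28 FPKM from 56 reads in untreated atr, the highest level of this gene in the ATM set. OsDREB1E had 0.165 FPKM in atr at 70 Gy, against 2.18 FPKM in untreated atr, and OsDREB1G had 2.14 FPKM in atr at 70 Gy, against 4.295 FPKM in untreated atr.

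In the second set, 5 of the 10 members passed the filter on low values: OsDREB1A, OsDREB1B, OsDREB1C, OsDREB1G and OsDREB1H. OsDREB1B had 66.3 and 36.1 FPKM in ku70 at 40 Gy, against 4.199 and 3.09 FPKM in the ku70 controls. In irradiated DJ leaves it was listed at 0 in replicate 1 and had 6.30 FPKM in replicate 2, and in DJ controls it had 33.2 and 6.08 FPKM. The difference was 3.44 ± 1.18 in ku70 (SE, limma adjusted p = 0.141) and -2.53 ± 1.18 in DJ (SE, limma adjusted p = 0.475), and neither passed. The irradiated ku70 libraries had 15067 and 15005 detected genes, and the ku70 controls 21755 and 20191. The median difference of all genes in ku70 was -0.29 as deposited and 0 when rescaled to recovered read totals. The part of these features in the OsDREB1B difference was not tested.

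The interaction for OsDREB1B, the 40 Gy difference in ku70 minus that in DJ, was 5.97 ± 1.67 (SE, limma adjusted p = 0.186). At 40 Gy, ku70 against DJ differed by 4.21 ± 1.18 (SE, limma adjusted p = 0.149). With only the ku70 groups in the fit the ku70 difference passed (limma adjusted p = 0.0287). It did not pass in the other 12 of 13 alternatives, where the limma adjusted p reached 0.410.

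OsDREB1C and OsDREB1G were listed at 0 in all 4 ku70 libraries, so only 3 of the 5 members could be called at 40 Gy in ku70. Of the 5 members tested, 0 were called at 40 Gy in ku70, where 9.92% of all genes were, and 0 in DJ, where 1.03% were. None of the 5 was called in the interaction (1.15%), in ku70 against DJ at 40 Gy (2.75%) or in the untreated lines (0.62%). OsDREB1B had an unadjusted limma p under 0.05 in 3 of these comparisons, ku70 at 40 Gy, the interaction and ku70 against DJ at 40 Gy. No other member had one in any. The shares of all genes at that threshold are not given here.

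OsDREB1A had 6.07 and 12.2 FPKM in ku70 at 40 Gy, against 2.38 and 7.68 FPKM in the ku70 controls. In irradiated DJ leaves it had 2.61 and 4.66 FPKM, and in DJ controls 5.40 and 5.60 FPKM. OsDREB1H was uneven between replicates, at 17.4 and 0 FPKM in ku70 at 40 Gy, against 0.797 and 1.19 FPKM in the ku70 controls.

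The TOP6A3-OE1_atm-2 library at 40 Gy had the highest DREB1 sum of its separately scaled set, 946 FPKM, against 112 FPKM in the TOP6A3-OE1 library. All 3 genes of the chromosome 9 cluster were higher in it. OsDREB1B had 539 FPKM from 3698 reads, against 11.0 FPKM from 94 reads in TOP6A3-OE1, a 48.8-fold difference. OsDREB1H had 99.0 FPKM, against 6.31 FPKM in TOP6A3-OE1, and OsDREB1A 287 FPKM, against 26.6 FPKM in TOP6A3-OE1.

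OsDREB1C and OsERF#028 went the other way. OsDREB1C had 12.1 FPKM in TOP6A3-OE1_atm-2, against 56.2 FPKM in TOP6A3-OE1, and OsERF#028 was listed at 0, against 6.03 FPKM from 114 reads in TOP6A3-OE1. Each line is a single library, so these differences have no replicate check. Among all genes, 12.8% were higher and 10.4% lower by a log2 difference of 1 or more. The share of detected genes with 1 to 10 reads was 20.8% in TOP6A3-OE1_atm-2 and 5.80% in TOP6A3-OE1, and its part in the differences was not tested.

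**Figure D5:**
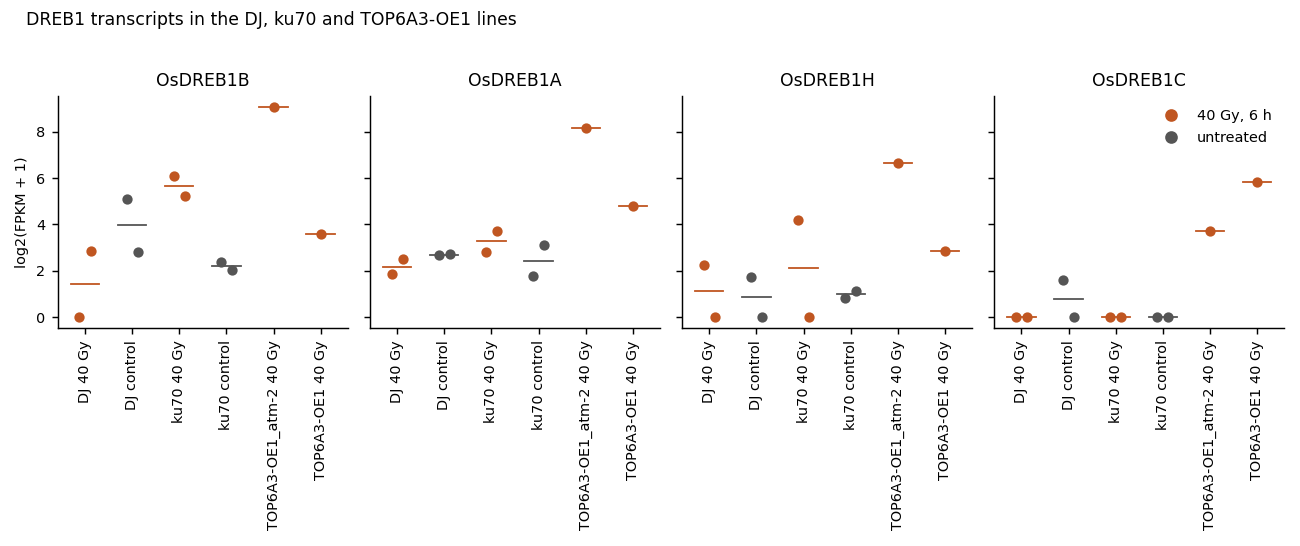
Level of OsDREB1B, OsDREB1A, OsDREB1H and OsDREB1C as log2(FPKM + 1) in the 10 libraries of the DJ, ku70 and TOP6A3-OE1 lines. Points are libraries and lines group means, and the TOP6A3-OE1_atm-2 point is the highest of the panel for OsDREB1B, OsDREB1A and OsDREB1H.

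Several members varied together across libraries, inside and outside the cluster. Over the 20 libraries of the ATM set, OsDREB1B and OsDREB1H had a Pearson r of 0.934 on log2(FPKM + 1), OsDREB1A and OsDREB1H 0.907, and OsDREB1A and OsDREB1B 0.803. OsDREB1G, on another chromosome, had 0.882 with OsDREB1B and 0.877 with OsDREB1H, and OsDREB1C had 0.817 with OsDREB1B. Without the cold libraries, over 18 libraries, OsDREB1A and OsDREB1H had 0.785, OsDREB1B and OsDREB1H 0.739, OsDREB1B and OsDREB1C 0.655, OsDREB1G and OsDREB1H 0.600, OsDREB1B and OsDREB1G 0.540, and OsDREB1A and OsDREB1B 0.454. The libraries share lines, treatments and scaling, so these values are descriptive.

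Among genes with a description and at least 5 FPKM in 1 library, the gene most like OsDREB1B was Os04g0571600, described as a DETOXIFICATION family (MATE) transporter, with r = 0.949 over 20 libraries and 0.844 over the 18 without cold. OsDREB1H itself was the fifth. For OsDREB1H the nearest over 20 libraries was Os04g0685300, described by similarity to NDR1/HIN1-like protein, with r = 0.949, and 0.908 over 18. Over 18 libraries Os03g0784800 was nearest to OsDREB1H, with r = 0.913. For OsDREB1G it was Os04g0491700, described as an inositol transporter, with r = 0.928 over 20 libraries, and over 18 libraries another gene, Os05g0165800, was nearest.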

How the data were processed

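Leaf RNA was sequenced with a directional kit, per the labels' protocols, and the authors deposited FPKM per gene with gene length. No aligner, genome build or strand setting of the counting is given in the sources used here. Tables listing the same genes were joined into sets of 20 libraries (ATM, atm-1, atr, TOP6A3 lines) and 10 (DJ, ku70, TOP6A3-OE1 lines), each scaled separately by the authors. FPKM times length gave whole reads for 100% of values within 0.01. Genes reaching 1 FPKM in 2 libraries or more (24582 and 23063 genes) were fitted with limma 3.58.1 (limma-trend, R 4.3.3) on log2(FPKM + 1), with a mean per group and a shared spread (10 and 4 residual degrees of freedom). Tests were two-sided, with Benjamini-Hochberg adjustment across all genes of a comparison and calls under 0.05.

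The fit was tested on simulated data: for cold in ATM, 87.9% of genes changed by a log2 of 4, 47.8% at 2 and 1.49% at 1 were recovered. For 40 Gy in DJ these were 56.1% at 4, 5.97% at 2 and 0% at 1. Changed genes were drawn only from those with higher mean values, so these rates do not cover members with low values. Every simulated library, the lone cold one included, was drawn from the fitted spread. The assumption made for a lone library was therefore not tested. All DREB1 genes are named. For each list, up to 4 called members with the largest difference are eligible, or up to 2 with the highest mean where none was called, and the 5 genes with the highest r are considered for likeness. Members and lists were chosen with earlier results of these data known. Alternatives were another pseudocount, other filters, voom on recovered reads, quantile normalization, library weights, fits of only the groups compared, a replicate block, libraries left out and, chosen after seeing the data, scaling to recovered read totals. Promoter and protein sequences were not used here. Python 3.11.15, pandas 2.3.3, numpy 2.4.6 and matplotlib 3.10.9 were also used.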

Additional observations from a re-analysis of the deposited data

Results flagged for a closer look

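The values of OsDREB1H at 70 Gy lay above the control in atr and below the controls in atm-1. In atr it had 1.10 FPKM from 15 reads at 70 Gy, against 0.776 FPKM from 10 reads without treatment, a log2(FPKM + 1) difference of 0.24 between single libraries with no test. In atm-1 all 3 irradiated libraries, at 0.278, 0 and 0.252 FPKM, were below all 3 controls, at 5.36, 1.87 and 2.73 FPKM (limma adjusted p = 0.555; weighting the libraries gave 0.0135). The share of all genes whose groups separate in this way is not given here. The difference between the lines was not tested.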

How the results depend on the processing

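In the cold, OsDREB1B, OsDREB1H, OsDREB1G and OsDREB1A kept their direction and their calls in ATM and over both lines under every alternative run that gave a value; in the fit of only the ATM groups OsDREB1G did not pass the filter and gave none. In atm-1 they kept them except when only the groups compared were fitted. That fit called 3 members in ATM, 0 in atm-1 (where 0 genes of all were called and 2159 had an unadjusted limma p under 0.05), 1 for top6a3 against TOP6A3 and 1 for ku70 at 40 Gy. Library weights, which called more genes in each of these comparisons, called 1 member in the cold interaction, 1 at 70 Gy in ATM, 4 at 70 Gy in atm-1, 1 for atm-1 against ATM at 70 Gy and 2 for top6a3 against TOP6A3. The cause was not tested. Where no share of all genes stands beside a count from an alternative, the count is not read as a result about the members. Leaving out single libraries gave 5 to 5 members called in ATM, 5 to 7 in atm-1 and 6 to 8 over both lines in the cold, and 0 to 1 for top6a3 against TOP6A3, where OsDREB1F was called without top6a3 replicate 2. The OsDREB1B difference at 70 Gy in ATM was -0.62 with all libraries and -1.30 to 0.0059 when single libraries were left out, the last without ATM control replicate 3. Rescaling to recovered read totals gave a median of all genes of -0.20 in the cold over both lines (voom -0.24), against -0.01 as deposited, and 5 members were called. Whether replicate numbers pair the samples was not settled, since deviations from the mean of so few libraries constrain each other. For ATM at 70 Gy against control, same-numbered libraries had r of -0.117, 0.00168 and 0.226, and differently numbered ones -0.314 to 0.299. With the replicate block 0 members were called in each comparison it could be fitted to. Depth limits OsDREB1D, OsDREB1E, OsDREB1F and Os07g0198650, which rest on 50 reads or fewer in every library.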
